A study of Penicillium oxalicum with 6 samples.

Results

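In the biomass-degrading mould Penicillium oxalicum, 94 of the 9834 genes listed, spread along the gene numbering, were at least 4-fold more abundant in the Avicel-labelled libraries than in the wheat bran-labelled ones. They were selected on measured values: a mean of 10 to under 1000 FPKM (fragments per kilobase of gene, scaled to library size) in the 3 Avicel-labelled libraries, and at least 4 times the mean of the 3 wheat bran-labelled libraries. These thresholds were met by 116 genes. The other 22 were left out by number, because they lie in listed neighbour blocks, belong to listed single genes or are POX07277. The members' height in the Avicel-labelled libraries and lower level in the wheat bran-labelled ones are therefore given by their choice. Both are described below without a test. What the choice did not set outright is their behaviour within a group, their place in the numbering, the genes beside them and their length. The choice still bears on some of these. A single high or low library moves a group mean, and the listed neighbour blocks were left out by number.

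Avicel is purified microcrystalline cellulose, whereas wheat bran also carries hemicellulose, starch and protein. On such insoluble polymers, filamentous fungi release small soluble sugars, take them up and raise the transcription of genes for secreted hydrolases, sugar uptake and protein secretion, largely through zinc cluster transcription factors. When free glucose is present, carbon catabolite repression holds much of this programme down. None of the 94 IDs was paired with a gene name or a product: 0 of all 9834 IDs matched an entry among the 9964 of the RefSeq gene table for ASM172317v3. The members are accordingly given by ID, and no function is attached to any of them.

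By their labels, 3 libraries came from 1% Avicel liquid cultures and 3 from 1% wheat bran liquid cultures of 4 hours, and the mycelium was of strain MuKu70 in all 6. This strain is a mutant of Ku70, a protein of DNA end joining whose loss favours targeted gene replacement, and both groups carry the mutation. The series title speaks instead of a POX07277 deletion mutant moved out of glucose medium and kept on Avicel for 24 hours. Each deposited table is likewise named with that gene's number and 24 hours, and a prefix letter differs between the groups. POX07277 had 427, 375 and 331 expected counts in Avicel-labelled replicates F, S and T and 0 in each of the 3 labelled wheat bran. All directions are thus between groups as labelled, and strain and medium cannot be told apart as the source of a difference. Libraries held 13176152 to 14598919 expected counts. The correlation of log2 levels was at least 0.983 within a group and at most 0.909 between groups.

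The median member lay well above the median gene in the Avicel-labelled libraries and below it in the wheat bran-labelled ones. The members' mean level had a median of 124 FPKM in the Avicel-labelled libraries, with quartiles of 36.9 and 221 FPKM, and a median of 13.4 FPKM in the wheat bran-labelled ones, with quartiles of 5.72 and 33.6 FPKM. The medians over all genes were 22.9 FPKM in the Avicel-labelled libraries and 23.4 FPKM in the wheat bran-labelled ones. The median member lay above 87.5% of all genes in the Avicel-labelled libraries and above 35.7% in the wheat bran-labelled ones. The 1000 genes with the highest mean held 40 members in the Avicel-labelled libraries and 0 in the wheat bran-labelled ones. The choice bounds the mean in both groups, so these ranks describe the members and nothing is read from them. Together the members took 2.49%, 2.25% and 2.44% of the expected counts of Avicel-labelled replicates F, S and T, and 0.29%, 0.326% and 0.312% of the wheat bran-labelled ones. The group means were 2.39% ± 0.126 and 0.309% ± 0.0186 (SD, n = 3 each), a ratio of 7.74.

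**Figure D1:**
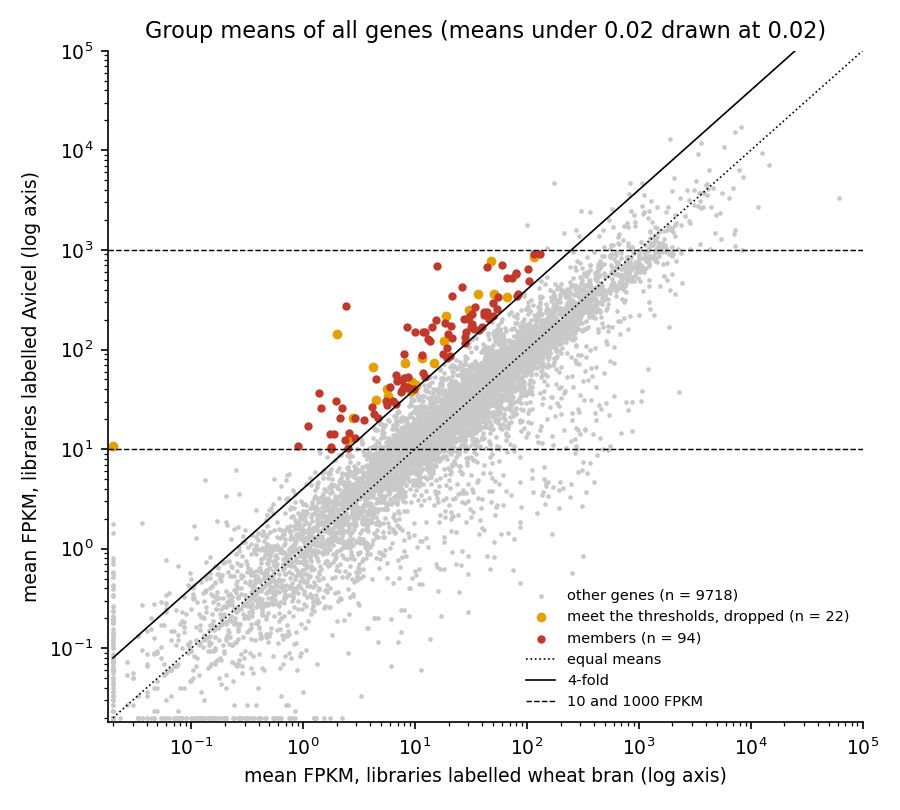
Mean FPKM of each gene in the 3 Avicel-labelled libraries (vertical, log axis) against that in the 3 labelled wheat bran (horizontal, log axis), with the 94 members in red, the 22 genes left out by number in orange and all others in grey. The members form a band above the 4-fold line that runs from 10 to under 1000 FPKM, with POX08890 (ratio 113) and POX05360 (ratio 43.8) standing clear of it on the left.

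The ratio of the group means was 4 to under 5 for 25 members, 5 to under 8 for 42, 8 to under 16 for 20, and 16 or more for 7, with a median of 6.34. By level, its median was 5.82 among the 20 members of 10 to under 30 FPKM, 5.54 among the 24 of 30 to under 100, 6.51 among the 34 of 100 to under 300, and 7.35 among the 16 of 300 FPKM or more. Those 16 members carried 55.9% of the members' counts in the Avicel-labelled libraries, and POX05360 alone carried 15.7%. No member but POX09417 had a mean under 1 FPKM in the wheat bran-labelled libraries, and 53 had at least 10 FPKM there, so nearly all had reads at a lower level in that group.

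The most abundant member was POX03430, with 1202, 826 and 701 FPKM in Avicel-labelled replicates F, S and T, against 155, 110 and 123 FPKM in the wheat bran-labelled ones. POX07378 stood at 721, 854 and 1130 FPKM in the Avicel-labelled libraries, against 114, 123 and 108 FPKM in the wheat bran-labelled ones. Both also had the highest means of all members in the wheat bran-labelled libraries, at 130 ± 23.2 and 115 ± 7.60 FPKM (SD, n = 3 each), and the Avicel-labelled libraries did not overlap these. POX03711 and POX01218 repeated the pattern of POX03430, with replicate F the highest and T the lowest of the Avicel-labelled libraries. POX03711 had 1052, 617 and 457 FPKM there, against 71.2, 53.1 and 55.9 FPKM in the wheat bran-labelled libraries. POX01218 had 972, 600 and 458 FPKM labelled Avicel, against 55.6, 36.7 and 40.7 FPKM labelled wheat bran. POX02739 had 793, 569 and 566 FPKM in the Avicel-labelled libraries, against 113, 112 and 81.6 FPKM in the wheat bran-labelled ones.

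POX05360 joined a high level to a large ratio and little spread. It stood at 765, 605 and 680 FPKM in Avicel-labelled replicates F, S and T, against 15.3, 15.4 and 16.2 FPKM in the wheat bran-labelled ones, a ratio of 43.8. Its lowest Avicel-labelled library was 37.5 times its highest labelled wheat bran. Since its implied length of 5515 bases was the longest among the members, this level rested on 48153 to 61504 expected counts per Avicel-labelled library and 1116 to 1218 per wheat bran-labelled library.

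The largest ratio, 113, was that of POX08890, with 310, 249 and 259 FPKM in the Avicel-labelled libraries, against 3.13, 2.01 and 2.08 FPKM in the wheat bran-labelled ones. POX08268 followed POX08890 and POX05360 with a ratio of 26.7, at 39.6, 32.2 and 38.6 FPKM labelled Avicel and 1.45, 1.11 and 1.58 FPKM labelled wheat bran. POX08706 came next with a ratio of 20.1, at 174, 171 and 165 FPKM labelled Avicel and 8.11, 9.10 and 8.21 FPKM labelled wheat bran. Within each group these 4 genes were far tighter than the gap between the groups. POX00669, with a ratio of 16.2, had 458, 394 and 433 FPKM in the Avicel-labelled libraries, against 24.8, 26.7 and 27.6 FPKM in the wheat bran-labelled ones. Of these genes with large ratios, POX00455 (ratio 17.8) rested on the fewest counts. It had 38, 66 and 161 expected counts in the Avicel-labelled libraries and 3, 3 and 8 in the wheat bran-labelled ones, or 11.04, 19.4 and 47.7 FPKM labelled Avicel and 0.96, 0.94 and 2.48 FPKM labelled wheat bran.

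**Figure D2:**
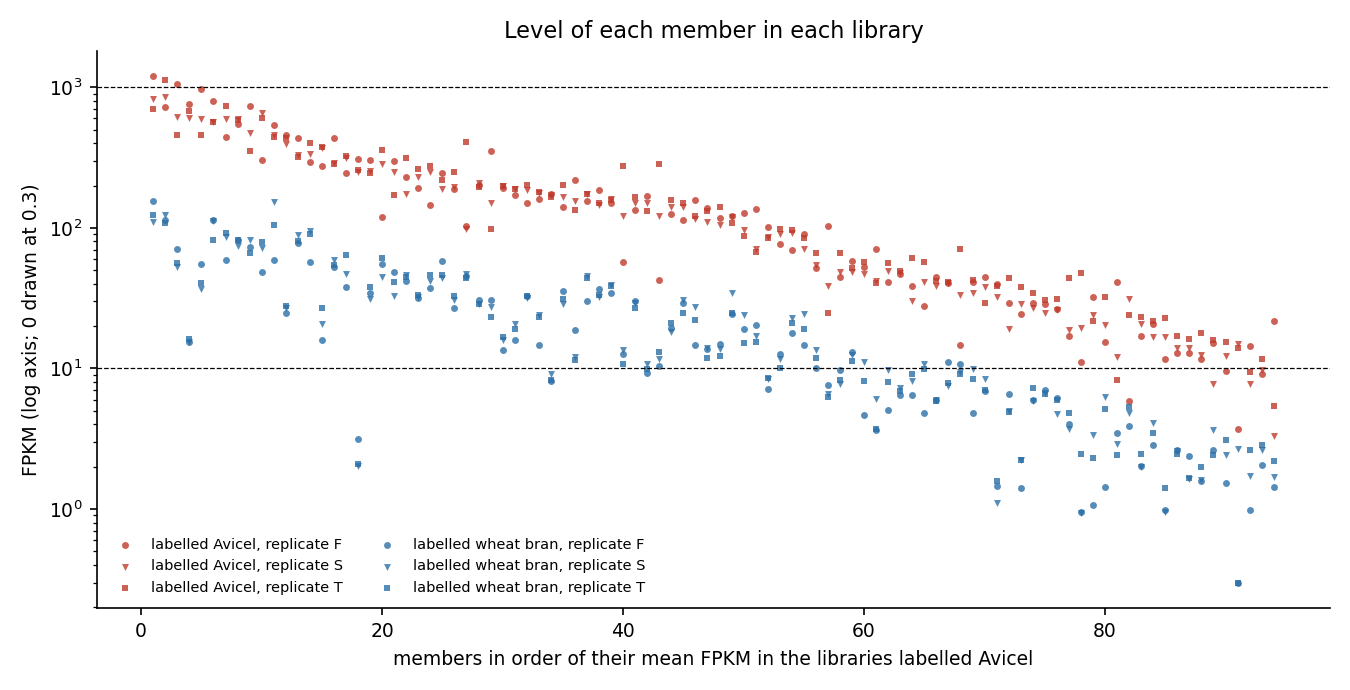
FPKM (log axis; 0 drawn at 0.3) of the 94 members in replicates F (circles), S (triangles) and T (squares), labelled Avicel in red and wheat bran in blue, in order of the mean of the Avicel-labelled libraries. For every member the 3 red points lie above the 3 blue ones, and several members at the right have their groups close together.

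At the lower level bound and the fold threshold the values ran on without a step. POX09364 and POX07397 were just inside the lower bound, with means of 10.1 and 10.2 FPKM in the Avicel-labelled libraries, and the nearest genes outside had 9.90 and 9.68 FPKM. At the upper bound POX03430 and POX07378 had 910 and 902 FPKM, and the nearest genes outside that were not left out by number had 1371 and 2398 FPKM. POX03762 and POX07397 were just inside the fold threshold, each at 4.07, and the nearest genes outside had ratios of 3.99 and 3.97. Another 62 genes of the same level range had ratios from 3 to under 4.

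In a test across all genes (edgeR quasi-likelihood test, adjusted p under 0.05), 93 of 93 members that passed the filter on low counts were called at 2-fold or more higher in the Avicel-labelled libraries, where 7.03% of all 8636 tested genes were. The groups did not overlap in FPKM, with the Avicel-labelled libraries higher, for 94 of 94 members and for 31.9% of tested genes. The lowest Avicel-labelled library was at least 4 times the highest labelled wheat bran for 50 members and at least 2 times for 89. For these folds no share over all genes was taken. The members were selected on this very contrast, so nothing is read from any of these counts. The fitted log2 fold changes ran from 2.02 to 6.82 with a median of 2.66, and the median over all tested genes was 0.0086.

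POX09417 was the member that did not pass the filter. It had 3, 12 and 11 expected counts in Avicel-labelled replicates F, S and T and 0, 2 and 0 in the wheat bran-labelled ones. Its implied length was 55.4 bases, the shortest of the members, so these few counts made 3.71, 14.98 and 13.9 FPKM in the Avicel-labelled libraries. Each wheat bran-labelled library was below a floor of 3 counts, so no fold is given for it. Its ratio of group means is nevertheless counted in the ratio classes and median ratios of the members, and rests on these few counts. The remaining members were better covered: 62 of the 94 had at least 100 counts in each of the 6 libraries, and 13 had under 30 counts in at least 1 wheat bran-labelled library.

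The members, chosen for a high mean in the Avicel-labelled libraries, differed widely in how these 3 libraries compared with one another. The highest exceeded the lowest at least 2-fold in 23 members (24.5%), against 4.21% of the 6559 other genes with 10 to under 1000 FPKM, and at least 3-fold in 11 members (11.7%), against 1.05%. The median relative SD among the Avicel-labelled libraries was 16.2% for members and 8.55% for those other genes, and 11.9% and 5.03% without replicate F. A single high library also lifts the mean by which the members were chosen, so this spread is not wholly independent of the choice. Without replicate F the 2-fold range held in 9 members (9.57%, against 0.534% of the other genes), without S in 19 (20.2%, against 3.20%) and without T in 11 (11.7%, against 2.41%), counts added after the data were seen. Replicates F and T were mostly the extremes. Replicate F was the lowest of the 3 in 45 members (47.9%), against 38.2% of the other genes, and the highest in 36 (38.3%), against 42.3%. Replicate S lay between F and T in 62 members (66.0%), against 41.1% of the other genes. The commonest arrangement had T highest and F lowest, in 39 members (41.5%, against 21.6%), and the next had F highest and T lowest, in 23 (24.5%, against 19.5%).

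**Figure D3:**
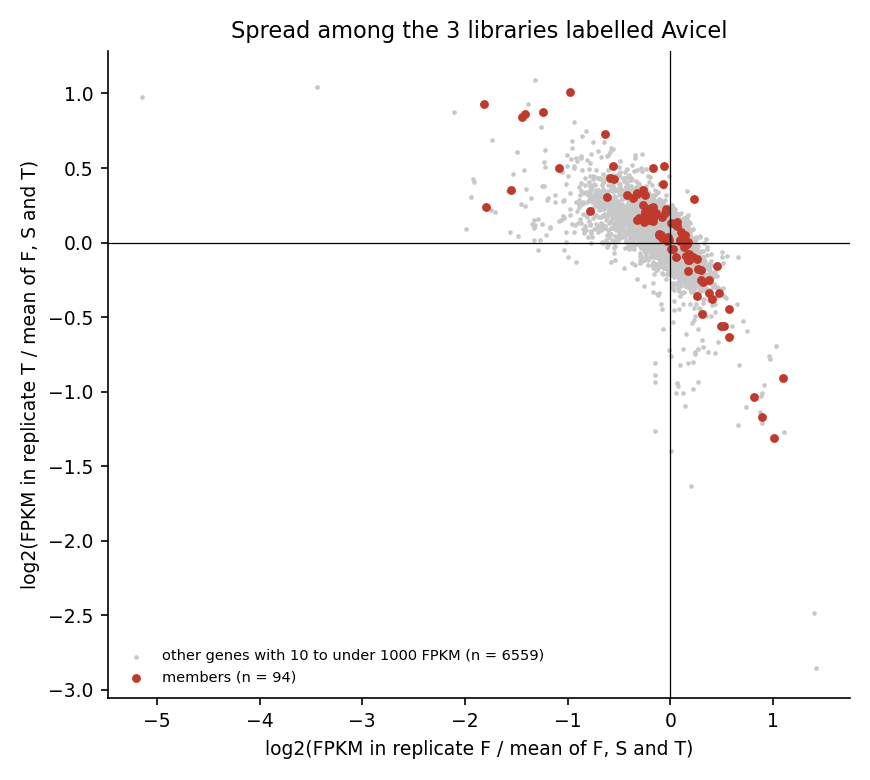
For each gene with 10 to under 1000 FPKM, the log2 of its level in replicate F (horizontal) and in replicate T (vertical) relative to the mean of the 3 Avicel-labelled libraries, with 94 members in red and 6559 other genes in grey. Most members lie along a falling band, from genes low in F and high in T at upper left to genes high in F and low in T at lower right.

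Of the 23 members with a 2-fold or larger range, replicate F was the highest in 8, T in 12 and S in 3. The strongest excess of F was in POX09364, with 21.7, 3.31 and 5.39 FPKM in Avicel-labelled replicates F, S and T, against 1.44, 1.69 and 2.18 FPKM labelled wheat bran. Its mean of 10.1 FPKM, by which it just entered the selection, thus rests on replicate F. POX09258 had 41.1, 12.1 and 8.27 FPKM in the Avicel-labelled libraries, against 3.47, 2.90 and 2.44 FPKM labelled wheat bran, and POX05540 had 103, 38.9 and 24.8 FPKM labelled Avicel, against 7.67, 6.57 and 6.24 FPKM labelled wheat bran. Both were lower in S and T than in F, yet above all of their wheat bran-labelled values. The opposite pattern was strongest in POX03761, with 42.4, 121 and 284 FPKM in the Avicel-labelled libraries, against 10.4, 11.7 and 13.2 FPKM labelled wheat bran. POX09578 was low in F alone, at 5.86, 31.2 and 24.1 FPKM labelled Avicel, against 3.92, 4.84 and 5.28 FPKM labelled wheat bran. In F it exceeded its highest wheat bran-labelled library by little.

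Other members were nearly level among the Avicel-labelled libraries. POX08706, described above for its ratio, had a relative SD of 2.51% there. POX00693 had 192, 198 and 197 FPKM labelled Avicel, a relative SD of 1.79%, and 13.5, 15.96 and 16.8 FPKM labelled wheat bran. POX00352 had 202, 208 and 196 FPKM labelled Avicel, a relative SD of 3.08%, and 30.9, 28.9 and 28.8 FPKM labelled wheat bran. POX00693 and POX00352 were picked after their values were seen.

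Among the wheat bran-labelled libraries the members' median relative SD was 14.1%, and that of the 7447 other genes with means in the members' range there was 8.24%. Without replicate F these values were 7.57% and 6.07%. The highest exceeded the lowest at least 2-fold in 10 members, a count taken without a share over other genes. Replicate F was the lowest of the 3 in 46 members (48.9%), against 33.2% of the other genes with 10 to under 1000 FPKM labelled Avicel. A single low library also lowers the wheat bran mean by which the members were chosen. Neither this order nor the spread is therefore wholly independent of the choice. POX00005 varied most there among the members that reached 30 counts in all 3 of these libraries, with 543, 460 and 445 FPKM labelled Avicel and 58.8, 153 and 104 FPKM labelled wheat bran. POX04918 had 52.6, 47.1 and 57.2 FPKM labelled Avicel and 4.64, 11.2 and 8.18 FPKM labelled wheat bran, and POX09819 had 41.3, 34.7 and 42.7 FPKM labelled Avicel and 4.84, 9.91 and 8.38 FPKM labelled wheat bran. All 3 were low in replicate F labelled wheat bran. In 36 of 94 members the same letter marked the highest library of both groups. No share over other genes was taken, so nothing is read from this count.

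The members were scattered along the numbering, but unevenly, and not all stood alone. Numbers 3001 to 4000 held 18 members and numbers 6001 to 7000 held 5. The widest stretch without a member ran from POX07562 to POX08136. Of the 94, 77 had no member at the next number on either side, while 17 lay in 7 runs of consecutive numbers, 5 runs of 2 genes, 1 of 3 and 1 of 4. The runs of 3 and 4 are described because of their length, a choice made after their values were seen. The IDs carry no genome position in the sources used here, so consecutive numbers describe the order of the list alone. The run of 4, POX04866 to POX04869, summed to 429 ± 58.1 FPKM in the Avicel-labelled libraries and 64.0 ± 3.38 FPKM in the wheat bran-labelled ones (SD, n = 3 each), with ratios of 4.73 to 7.24. At its flanks, log2 fold changes were 0.12 (SE 0.12, edgeR adjusted p = 0.431) at POX04865 and -0.07 (SE 0.08, adjusted p = 0.468) at POX04870. The run of 3, POX07374 to POX07376, summed to 457 ± 17.9 FPKM labelled Avicel and 88.6 ± 17.8 FPKM labelled wheat bran (SD, n = 3 each). One number separates it from POX07378, the second most abundant member. The gene between, POX07377, stood at 11.7 ± 1.26 FPKM labelled Avicel and 8.54 ± 1.03 FPKM labelled wheat bran (SD, n = 3 each; log2 fold change 0.46, SE 0.13, edgeR adjusted p = 0.0184).

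Adjacent members differed in how alike their libraries were. In POX03761 and POX03762 replicate T labelled Avicel was the highest and F the lowest, at 284, 121 and 42.4 FPKM in T, S and F for POX03761 and 71.2, 33.4 and 14.6 FPKM for POX03762. POX03762 had 10.7, 9.46 and 9.12 FPKM in F, S and T labelled wheat bran. POX03741 and POX03742 were both highest in T, but to unequal degrees: 103, 97.7 and 406 FPKM in F, S and T labelled Avicel for POX03741, against 45.3, 47.2 and 44.1 FPKM labelled wheat bran, and 229, 175 and 315 FPKM labelled Avicel for POX03742, against 41.8, 46.1 and 44.4 FPKM labelled wheat bran. POX03854 and POX03855 averaged 20.4 ± 3.13 and 14.3 ± 1.72 FPKM labelled Avicel and 2.16 ± 0.28 and 1.89 ± 0.43 FPKM labelled wheat bran (SD, n = 3 each).

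Genes next to members were not chosen by their values, except that those meeting the same thresholds are members themselves, and could be tested. POX07535, with a ratio of 8.90, met the thresholds but was left out by number, and it is counted below as a non-member. Of the 166 genes that lie 1 number from a member and are no members themselves, 138 were tested. In the Avicel-labelled libraries 64 of these were called higher (46.4%; 27.5% of all tested genes were called higher) and 26 lower (18.8%; 27.5% of all tested genes were called lower; edgeR quasi-likelihood test, adjusted p under 0.05). Their median log2 fold change was 0.32, and 31 (22.5%) were called at 2-fold or more higher, where all tested genes gave 7.03%. Without POX07535, 63 of 137 were called higher (46.0%) and 30 at 2-fold or more higher (21.9%). At a distance of 2 numbers 53 of 151 genes were called higher (35.1%), and at 3 numbers 45 of 155 (29.0%). The share called higher did not settle with distance: it was 35.00% at 6 numbers, 39.6% at 8 and 31 of 155 at 9, so that only the value at 1 number lay above all of those from 2 to 10 numbers. The share called at 2-fold or more higher was 13.2% at 2 numbers and 5.10% to 9.38% at 3 to 10. When any 1 library was omitted, 52 to 69 of the genes 1 number away were called higher. The share of all tested genes called in these refits was not taken, so nothing is read from this range. Of the members, 46 had at least 1 gene beside them that was a member or was called at 2-fold or more higher, and 48 had none. The 17 members in runs count among the 46 because they lie beside one another. No share over all genes was taken, so nothing is read from this count. Whether the library kit kept strand is not given in the sources used here, so reads of genes that overlap cannot be told apart.

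**Figure D4:**
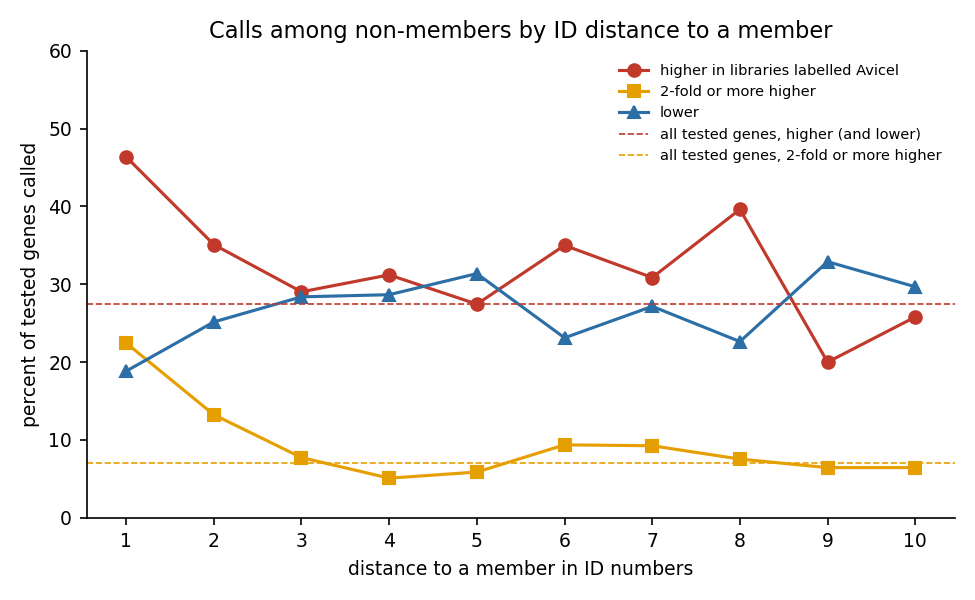
Percent of tested non-members called higher (red circles), called at 2-fold or more higher (orange squares) and called lower (blue triangles) in the Avicel-labelled libraries, by distance from a member in ID numbers. Dashed lines give the percent of all tested genes. The red and orange points are highest at distance 1, and the red ones swing about their line from distance 3 to 10, up to 39.6% at 8.

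Some of these adjacent genes, picked after their values were seen, followed the member next to them library by library. POX09363, beside POX09364, had 11.2, 2.71 and 3.90 FPKM in Avicel-labelled replicates F, S and T, against 1.11, 1.67 and 1.78 FPKM labelled wheat bran (log2 fold change 1.96, SE 0.57, edgeR adjusted p = 0.0207). POX01219, beside POX01218, had 61.7, 22.3 and 16.4 FPKM labelled Avicel, against 12.9, 6.40 and 8.22 FPKM labelled wheat bran (log2 fold change 1.87, SE 0.51, adjusted p = 0.0154). In both genes replicate F labelled Avicel was the highest, as in the member. On the other side of POX09364, POX09365 was also highest in replicate F labelled Avicel but was not called higher. It had 1884, 132 and 97.3 FPKM labelled Avicel, against 892, 747 and 262 FPKM labelled wheat bran (log2 fold change 0.17, SE 1.04, edgeR adjusted p = 0.901). Others went the opposite way from their member. POX00353, beside POX00352, fell to 11.4 ± 1.48 FPKM in the Avicel-labelled libraries, against 137 ± 15.5 FPKM in the wheat bran-labelled ones (SD, n = 3 each; log2 fold change -3.58, SE 0.13, edgeR adjusted p = 1.27e-06). POX05898, beside the member POX05897, fell to 54.2 ± 9.71 FPKM labelled Avicel, against 384 ± 151 FPKM labelled wheat bran (SD, n = 3 each; log2 fold change -2.82, SE 0.28, edgeR adjusted p = 0.00012).

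Members and other genes of their level had similar median lengths. The length implied by count and FPKM, an effective length that need not equal the transcript, had a median of 1273 bases for the 94 members and 1289 bases for the 6559 other genes with 10 to under 1000 FPKM. It was under 500 bases in 10 members (10.6%) and 787 of those genes, and at least 2000 bases in 17.0% and 23.5%. The median ratio was 6.40 for members below 1000 bases and 6.20 for those of 1000 bases or more. Counts that were not whole, as arise when reads are divided between similar genes, occurred in 2 members, POX09781 and POX09819, and in 109 of all 9834 genes at a tolerance of 1e-06 counts. At a tolerance of 0.05 counts they occurred in POX09781 alone among the members and in 93 genes, since POX09819 was off by 0.01 in 1 library. The distance from a whole count does not measure how many reads were divided, and a whole count does not show that none were. How far this makes the level of POX09781 uncertain was not tested. The counts of POX09781 were 93.6, 46.9 and 95.7 labelled Avicel and 14.8, 20.7 and 14.0 labelled wheat bran. Those of POX09819 were 451, 375 and 457 labelled Avicel and 48.0, 100 and 86 labelled wheat bran.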

How the data were processed

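RSEM 1.2.12, BWA 0.7.10-r789, DESeq2 and Bowtie2 2.1.0 are listed in the submitters' processing notes without a role. Genome build, annotation and strand: not given in the sources used here. Each library has 1 deposited table with expected counts, which are estimated and not normalized, and FPKM, which the authors scaled to gene length and library, per the file headers; the TPM deposited for 1 library was not used. Members and named genes were chosen with earlier results of these data known. Members came from a rule on group means of FPKM. The genes named were those with the highest level, ratio, wheat bran level, replicate F contrast or wheat bran spread, those at the thresholds, and the first runs of consecutive numbers. After rounding, expected counts were compared by edgeR 4.0.16 under R 4.3.3, with filterByExpr, TMM and the quasi-likelihood F-test; p-values were adjusted after Benjamini and Hochberg over 8636 tested genes, and 1198 were filtered out; the SE was derived from the F statistic. The fit was tested on simulated counts with the same dispersion (spread beyond counting error) for every gene. That setting does not cover members with a wide spread among libraries. Implied length is the median over libraries of count over FPKM and total count, at 2 FPKM or more. Alternatives used DESeq2 1.42.0 and limma 3.58.1. Whether replicates are separate cultures is not stated in the labels; the p-values then reflect no more than the variation among these 6 libraries, which may be technical. Floors of 3 counts cover counting error only.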

Additional observations from a re-analysis of the deposited data

How the results depend on the processing

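The number of members was 83 to 106 under a level bound of 20 or 5 FPKM, TMM-normalised values or group medians. It was 156 at a ratio of 3 and 51 at 6, by construction. With each library left out it was 91 to 99, and 73 of the 94 were members in all 6 such selections. The members' median log2 fold change of 2.66 became 2.50 with limma on log2(FPKM + 1), where the pseudocount shrinks low genes by construction, and stayed within 2.59 to 2.74 in the other alternatives with edgeR, DESeq2 or a pseudocount of 0.1 and with each library left out. The genes beside members that were called higher numbered 52 to 69 in the alternatives run on them. These included 63 with the IDs left out by number removed, a setting chosen after seeing the data, and 53 for genes 2 numbers away. No share over all genes was taken in the alternative fits, so the range does not show whether the neighbours' excess held. On summed FPKM in place of counts the members took 1.78% in the Avicel-labelled libraries and 0.22% in the wheat bran-labelled ones, and 2.35% to 2.46% and 0.301% to 0.319% of counts with each library left out. The median relative SD was 11.9% to 21.7% labelled Avicel and 7.57% to 14.5% labelled wheat bran with each library left out, lowest without replicate F in both groups. Members with a 2-fold range among the Avicel-labelled libraries numbered 9 to 19 with each of these left out, a count added after seeing the data. Genes with 10 FPKM or more in either group had a median implied length of 1264 bases, against 1224 over all genes with a length; the cause was not tested. With the letter as a replicate block, 93 members (at 2-fold or more) and 61 genes beside them were called higher. The members were chosen on this contrast, and this fit too has no share over all genes, so nothing is read from either count. Same-letter deviations had correlations of 0.19 (F), -0.10 (S) and 0.23 (T), so the letters were not taken as pairs. Counting error limits POX09417 and POX00455, which had the fewest wheat bran counts. It also bears on the other members among the 13 with under 30 counts in at least 1 wheat bran-labelled library. POX02063, for example, had 4, 7 and 11 counts there in replicates F, S and T.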
